A study of Mus musculus with 4 samples.

Results

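The genes described here are the 4 Notch receptors (*Notch1*, *Notch2*, *Notch3* and *Notch4*), 5 of their ligands (*Dll1*, *Dll3*, *Dll4*, *Jag1* and *Jag2*) and the target gene *Hey1*. They were chosen by symbol, and all 10 were found among the 24637 genes of the table. Their RNA was measured by sequencing polyadenylated RNA from 4 cultures of mouse embryonic stem cells (ESCs), 2 from lines labelled WT (genotype *Taf4*+/+) and 2 from lines labelled *Taf4a*-/- (genotype *Taf4*-/-), to compare the genotypes at the end of differentiation towards cardiomyocytes. All 4 cultures grew for 5 days as embryoid bodies in medium with 20% serum and then for 9 days on gelatin-coated plates. The lines were derived from blastocysts of *Taf4a*+/- crosses on a C57Bl6J background and had been kept on mouse embryonic fibroblast feeders with LIF, and the paralogue *Taf4b* was not deleted in any of them. The null allele lacks exons 11 and 12 of *Taf4a*, which encodes the TFIID subunit Taf4, in every cell from the start. The paper's methods report 2 biological replicates and 2 independent lines per genotype for its RNA sequencing. The labels give only a replicate number, so the line behind each library is not known.

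Notch signalling passes between touching cells. A Delta-like (Dll) or Jagged (Jag) protein on one cell binds a Notch receptor on its neighbour, the receptor is cleaved, and its intracellular part moves to the nucleus, where it joins the DNA-binding factor RBPJ and Mastermind-like proteins and switches on repressors of the Hes and Hey families. In the embryo the pathway is known for arterial specification, segmentation of the somites, the maintenance of neural progenitors, and the formation of the heart valves and the smooth muscle of vessels. *Dll3* is the exception among the ligands, since it does not activate receptors on neighbouring cells.

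Values are read counts divided by a size factor per library, called normalized counts here, and each library held 21732746 to 27733034 reads on genes. The level of *Taf4a* itself was 889 in WT replicate 1, 678 in WT replicate 2, and 1722 and 1799 in the *Taf4a*-/- labelled libraries, so its gene-level RNA was higher where the gene is labelled as deleted (by 1.18 on the log2 scale, adjusted p = 0.00569 from limma), and its span overlaps *4921531C22Rik*. This count covers all exons together and does not check the deletion of exons 11 and 12, and genotypes are given as labelled. Defining cardiomyocyte markers were present in every culture but lower in the *Taf4a*-/- labelled libraries (13 of 13 markers passed the test, with summed levels of 33401 to 35402 normalized counts in WT and 3634 to 3816 in the others). The WT libraries were not alike, and the summed level of 9 pluripotency markers was 5426 in WT replicate 1 and 2796 in WT replicate 2, against 15635 to 17912 in the *Taf4a*-/- labelled libraries. The 16926 genes whose mean reached 10 normalized counts were tested with limma on log2(normalized counts + 1), and p-values were adjusted over all of them by the Benjamini-Hochberg method. At an adjusted p-value under 0.05, 28.6% of these genes were called, 11.3% as higher and 17.3% as lower in the *Taf4a*-/- labelled libraries.

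Of the 10 genes, *Jag1*, *Jag2* and *Hey1* were lower in the *Taf4a*-/- labelled libraries and the other 7 did not pass the threshold. All 10 were tested. The 3 of 10 called lower stand beside 17.3% of all genes, and no test sets the list apart. None of the 10 was called higher by limma, and 1 of them, *Notch2*, was higher at an unadjusted p-value under 0.05. Limma's voom on the recovered reads likewise called 0 higher and 3 lower. The median log2 fold change of the 10 genes was 0.09, beside -0.01 over all genes tested. Values of 6 of the 10 genes did not overlap between genotypes, as for 71.1% of all genes tested. Of these 6, *Notch3*, *Jag1*, *Jag2* and *Hey1* were on the lower side, as were 36.6% of all genes, and *Notch2* and *Notch4* on the higher side, as were 34.5%.

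**Figure D1:**
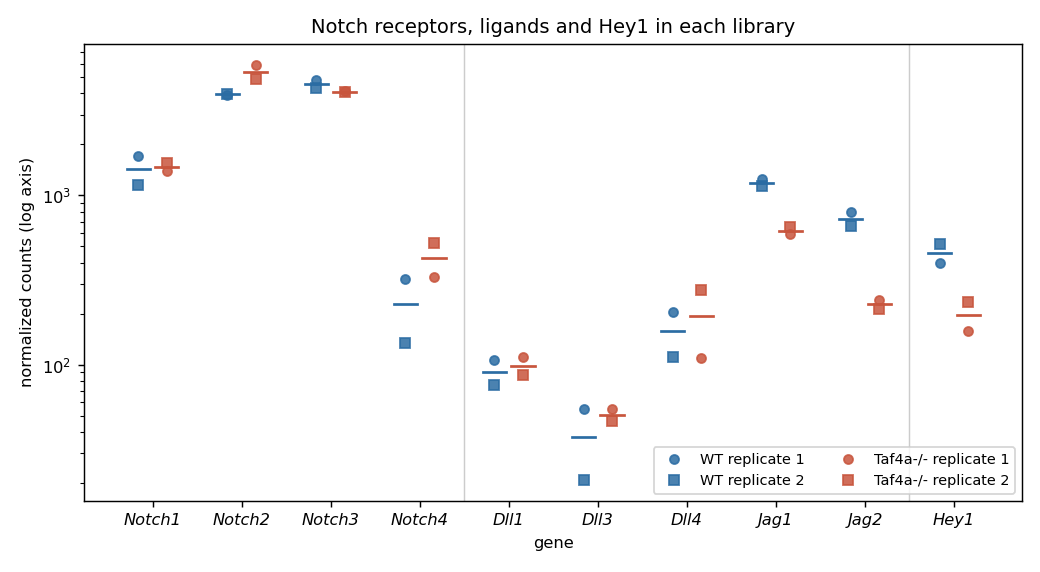
Normalized counts (log axis) of the 10 genes in each of the 4 libraries, with circles for replicate 1, squares for replicate 2 and a bar for the mean of each genotype. Both *Taf4a*-/- labelled libraries lie below both WT libraries for *Jag1*, *Jag2* and *Hey1*, and *Notch1*, *Dll1*, *Dll3* and *Dll4* overlap between genotypes.

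The promoters of some genes that changed are shown first, and their part in the changes was not tested. Of the 10 genes, 9 matched a promoter of the RefSeq set, which gives 250 bases before and 50 after an annotated start on GRCm38.p6. *Hey1* did not match. *Dll1* had 2 such promoters, and each of the sequences was found once, without mismatch, on its chromosome of NCBIM37 (mm9), the build to which the reads were mapped. The promoters of *Jag1* and *Jag2* are given here for the ligands that fell, with the class C site CACGCG, which Hes and Hey repressors can bind, in capitals on either strand. That of *Hey2*, a target gene that also fell, is given with CGTGGGAA, an Rbpj site, in capitals on either strand. On NCBIM37 they lie at chr2:136942207-136942506 on the minus strand (*Jag1*), chr12:114167657-114167956 on the minus strand (*Jag2*) and chr10:30562540-30562839 on the minus strand (*Hey2*).
Jag1: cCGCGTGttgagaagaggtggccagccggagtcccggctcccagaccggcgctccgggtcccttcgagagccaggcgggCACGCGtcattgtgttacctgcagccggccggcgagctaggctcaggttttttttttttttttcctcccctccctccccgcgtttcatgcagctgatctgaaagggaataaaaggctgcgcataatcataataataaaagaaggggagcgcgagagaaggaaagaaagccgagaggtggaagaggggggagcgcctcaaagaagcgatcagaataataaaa
Jag2: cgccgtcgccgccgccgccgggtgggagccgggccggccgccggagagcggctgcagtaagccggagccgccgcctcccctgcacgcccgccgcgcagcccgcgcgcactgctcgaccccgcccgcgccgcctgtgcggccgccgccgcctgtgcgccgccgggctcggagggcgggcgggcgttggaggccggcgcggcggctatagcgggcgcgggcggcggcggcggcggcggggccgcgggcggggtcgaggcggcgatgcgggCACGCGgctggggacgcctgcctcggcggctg
Hey2: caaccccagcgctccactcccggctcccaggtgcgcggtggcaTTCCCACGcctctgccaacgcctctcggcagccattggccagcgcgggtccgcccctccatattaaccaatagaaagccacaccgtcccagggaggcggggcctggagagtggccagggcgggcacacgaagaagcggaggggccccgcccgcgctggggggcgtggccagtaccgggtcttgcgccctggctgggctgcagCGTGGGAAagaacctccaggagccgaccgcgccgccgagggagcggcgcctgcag

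The 2 Jagged promoters differed in composition. That of *Jag2* had 86.0% G and C and 63 CG dinucleotides, whereas that of *Jag1* had 55.7% and 22, and the median of the 32851 promoters in the set was 52.7% and 7. The *Jag1* promoter held CACGCG (counted on both strands) at 2 places, beginning 249 and 171 bases upstream of the RefSeq start. That of *Jag2* held it at 1 place, 18 bases downstream. For *Jag1* the RefSeq start lies inside the gene span given below, so distances from the end of that span differ. CACGCG was in the promoters of 5 of the 9 genes (*Notch2*, *Dll1*, *Dll4*, *Jag1* and *Jag2*) and in 9.27% of all promoters, but it contains CG, and the 10 promoters of these genes had a median of 22.5 CG dinucleotides. The core Rbpj motif TGGGAA, the longer CGTGGGAA that contains it, the E-box CACGTG and the TATA box TATAAA were in none of the 10 windows on either strand. They were in 25.6%, 0.734%, 7.15% and 13.6% of all promoters, respectively. The 10 promoters also had more G and C (median 63.2%, beside 52.7% in the set), and these absences were not tested. *Hey2* held CGTGGGAA at 2 places, beginning 207 and 5 bases upstream of the start, and 4 of the 32851 promoters held it at 2 or more. *Hey2* is not one of the 10 genes and was shown without a rule set beforehand, and the promoter of *Heyl*, a target that fell more, is not shown. These are matches of letters in short windows, and binding was not measured.

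Among the receptors, *Notch3* and *Notch2* gave most of the RNA in both genotypes. *Notch3* (ENSMUSG00000038146, NCBIM37 chromosome 17, 32257765 to 32303825), the receptor of vascular smooth muscle and pericytes, had 4827 and 4283 normalized counts in WT and 4155 and 4056 in the *Taf4a*-/- labelled libraries. The genotypes were separate but close, with a log2 fold change of -0.15 (95% interval -0.44 to 0.14, adjusted p = 0.381 from limma). The interval leaves out a fall of 1 on the log2 scale.

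*Notch2* (ENSMUSG00000027878, chromosome 3, 97817461 to 97954290), a broadly expressed receptor, had 3938 and 3991 normalized counts in WT and 5915 and 4844 in the *Taf4a*-/- labelled libraries. The WT libraries were nearly equal and both others lay above them, by 1.35-fold on average. Its log2 fold change of 0.43 (SE 0.14, 95% interval 0.10 to 0.76) had an adjusted p-value just above the threshold (0.0579 from limma). It passed when libraries were scaled to equal totals (0.49, adjusted p = 0.0455) or to their upper quartile (0.52, adjusted p = 0.0328), and over all 14 alternatives run the adjusted p-value ranged from 0.0328 to 0.438.

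*Notch1* (ENSMUSG00000026923, chromosome 2, 26313423 to 26372183), a receptor required in the early embryo and in endothelium, had 1699 and 1152 normalized counts in WT and 1387 and 1552 in the *Taf4a*-/- labelled libraries. Both null libraries lay between the WT libraries, and the log2 fold change was 0.07 (95% interval -0.42 to 0.56, adjusted p = 0.821 from limma). Its span overlaps other genes, as do those of *Notch3*, *Notch4*, *Dll1* and *Dll4*, and reads of overlapping genes cannot be told apart here. *Notch4* (ENSMUSG00000015468, chromosome 17, 34701213 to 34725448), the receptor best known from endothelial cells, had 322 and 134 normalized counts in WT and 331 and 519.8 in the *Taf4a*-/- labelled libraries. WT replicate 1 nearly equalled the lower null library, and WT replicate 2 was 2.40-fold lower than WT replicate 1. The log2 fold change of 0.99 (95% interval -0.070 to 2.06) was not called (adjusted p = 0.137 from limma), and without WT replicate 1 it was 1.62 and did (adjusted p = 0.0362).

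Levels of different genes can be compared only per length of transcript. Per kilobase of annotated exon, *Notch3* took 52.8% ± 0.13 of the summed receptor level in WT and 43.3% ± 1.32 in the *Taf4a*-/- labelled libraries (SD, n = 2 each). *Notch2* took 35.3% ± 3.23 and 43.4% ± 4.05, so that the lead of *Notch3* over *Notch2* seen in both WT libraries was absent in the *Taf4a*-/- labelled replicate 1, where *Notch2* had 46.2% and *Notch3* 42.4%. *Notch1* took 9.27% ± 1.77 and 8.79% ± 1.11, and *Notch4* 2.58% ± 1.32 and 4.52% ± 1.62. The summed receptor level was 1010 and 1134 normalized counts per kilobase in WT and 1139 and 1218 in the *Taf4a*-/- labelled libraries. With 2 libraries against 2, an exact permutation test of such a share cannot give a p-value below 0.333, so these shares are given as values. When the longest transcript was used as the length, *Notch1* took 13.2% and 12.5% and *Notch3* 50.2% and 41.1% in the 2 genotypes.

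**Figure D2:**
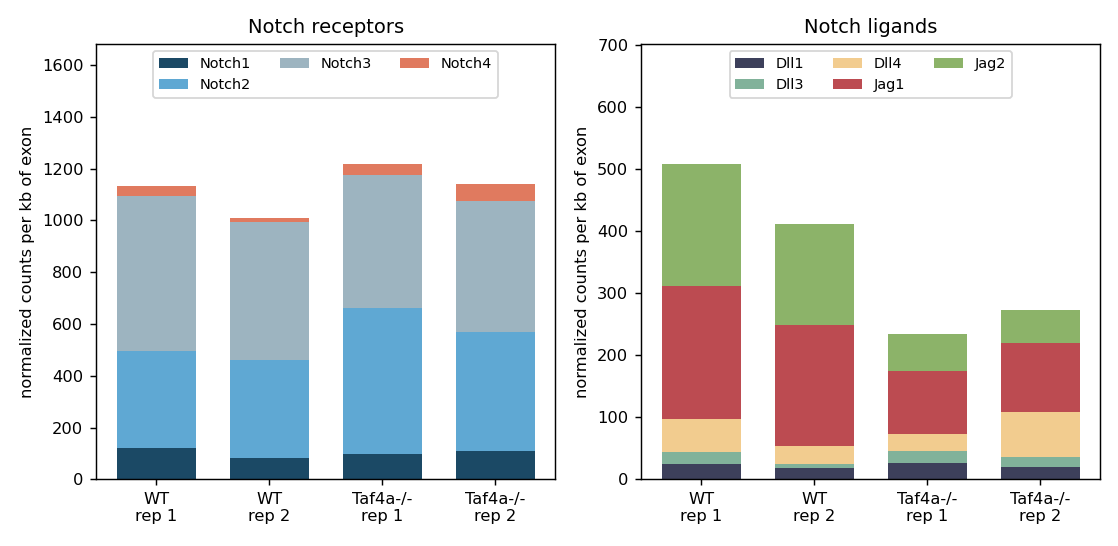
Normalized counts per kilobase of annotated exon, stacked by gene, for the receptors (left) and the ligands (right) in each of the 4 libraries. The receptor sums lie between 1010 and 1218 in all libraries, whereas the ligand sums are 411 and 508 in WT and 234 and 273 in the *Taf4a*-/- labelled libraries.

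Among the ligands, both Jagged genes fell and the 3 Delta-like genes did not pass the threshold. *Jag1* (ENSMUSG00000027276, chromosome 2, 136907192 to 136942380), the ligand whose loss disturbs heart, bile duct and vessel development, had 1248 and 1133 normalized counts in WT and 589 and 649 in the *Taf4a*-/- labelled libraries. Each genotype was tight, and the null libraries stood at about 0.521 of the WT level. On the log2 scale the change was -0.94 (SE 0.14, adjusted p = 0.00666 from limma). *Jag2* (ENSMUSG00000002799, chromosome 12, 114146801 to 114167706), a ligand with roles in limb, palate and thymus, had 798 and 658 normalized counts in WT and 239.8 and 213 in the *Taf4a*-/- labelled libraries. It fell 3.19-fold, or by -1.67 on the log2 scale (SE 0.18, adjusted p = 0.00303 from limma). The falls of *Jag1* and *Jag2* passed the threshold under all 14 alternatives run, with log2 fold changes from -1.01 to -0.85 and from -1.81 to -1.47. The 95% intervals, -1.27 to -0.61 for *Jag1* and -2.11 to -1.24 for *Jag2*, overlapped slightly, and the difference between the 2 falls was not tested.

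The Delta-like genes had fewer reads and wider spreads. *Dll4* (ENSMUSG00000027314, chromosome 2, 119151520 to 119161698), the ligand of arterial and sprouting endothelium, had 205 and 111 normalized counts in WT and 109 and 278 in the *Taf4a*-/- labelled libraries. The libraries of each genotype differed by 1.85-fold and 2.55-fold, more than the genotypes did, and the log2 fold change of 0.20 had a 95% interval from -1.02 to 1.42 (adjusted p = 0.788 from limma). *Dll1* (ENSMUSG00000014773, chromosome 17, 15504318 to 15513836), the main activating ligand of somites and neural progenitors, had 106 and 75.9 normalized counts in WT and 111 and 86.3 in the *Taf4a*-/- labelled libraries. Its values were much alike in the 2 genotypes, with a log2 fold change of 0.12 (95% interval -0.61 to 0.86, adjusted p = 0.786 from limma). *Dll3* (ENSMUSG00000003436, chromosome 7, 29076673 to 29087257), the lowest of the 10 genes in reads, had 62 and 20 reads in WT and 56 and 42 in the *Taf4a*-/- labelled libraries. In normalized counts these were 54.4, 20.8, 54.8 and 46.5, so WT replicate 2 stood apart and the other 3 libraries were close. Its log2 fold change was 0.57, with an interval from -0.66 to 1.79 that allows either direction (adjusted p = 0.428 from limma).

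Shares of the ligand RNA restate the falls of the Jagged genes relative to the Delta-like genes, and are not a separate result. The Jagged genes together took 80.9% and 86.8% of the summed ligand level per kilobase in WT and 68.6% and 60.2% in the *Taf4a*-/- labelled libraries. *Jag2* took 39.1% ± 0.55 in WT and 22.3% ± 4.24 in the *Taf4a*-/- labelled libraries (SD, n = 2 each), while *Jag1* kept close to its share, at 44.7% ± 3.68 and 42.1% ± 1.70. *Dll4* took 10.5% and 7.0% in the WT libraries, and 12.1% and 26.4% in the *Taf4a*-/- labelled replicates 1 and 2. The summed ligand level was 508 and 411 normalized counts per kilobase in the WT libraries and 234 and 273 in the others. These shares are values without a test, for the reason given for the receptors.

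**Figure D3:**
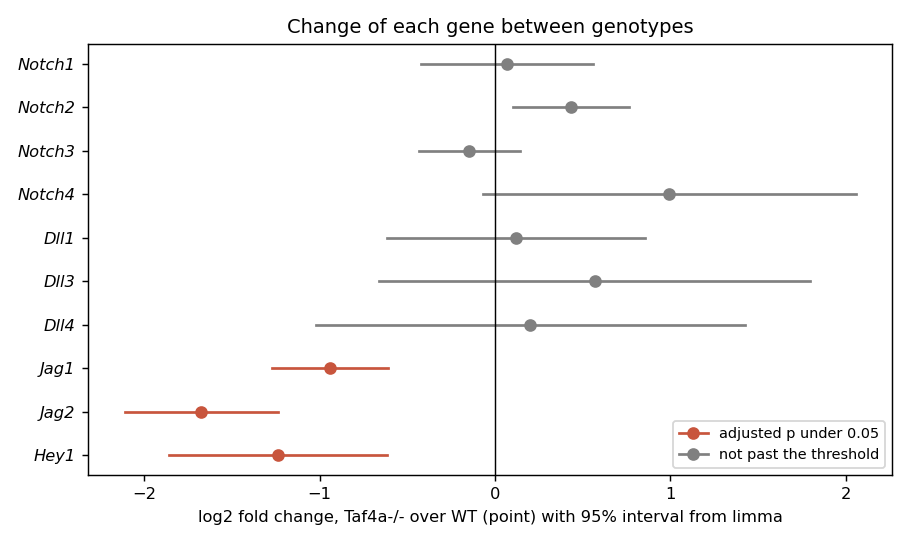
Log2 fold change of each of the 10 genes, *Taf4a*-/- labelled libraries over WT, with the 95% interval from limma as a bar and genes past the adjusted threshold in red. The intervals of *Jag1*, *Jag2* and *Hey1* lie below 0, and those of *Notch4*, *Dll3* and *Dll4* are the widest, each over 2 log2 units.

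*Hey1* (ENSMUSG00000040289, chromosome 3, 8663362 to 8667039), a repressor induced by Notch in endothelium and myocardium, had 399.8 and 517 normalized counts in WT and 159 and 233 in the *Taf4a*-/- labelled libraries. Both null libraries lay well below both WT libraries, by 2.36-fold on average. The log2 fold change was -1.24 (SE 0.26, 95% interval -1.86 to -0.62, adjusted p = 0.0187 from limma). This call was less firm than those of the Jagged genes, since it was lost without WT replicate 2 (-1.05, adjusted p = 0.0942), without the *Taf4a*-/- labelled replicate 1 (-0.96, adjusted p = 0.0608) and without a variance trend (adjusted p = 0.0559). The value stayed below 0 in every alternative, from -1.51 to -0.96.

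The other targets of the pathway included both falls and genes that were not called. Of 9 further target genes, 5 had enough reads to be tested and 2 of them, *Hey2* and *Heyl*, were lower (40.0%, beside 17.3% of all genes), and limma and voom called 0 higher, as did an unadjusted p-value under 0.05. *Heyl*, a Hey family repressor found in smooth muscle, had 161 and 219 normalized counts in WT and 15.7 and 15.5 in the *Taf4a*-/- labelled libraries. This was an 11.4-fold fall (-3.51 ± 0.32 SE on the log2 scale, adjusted p = 0.00199 from limma), and it was the largest among the pathway genes tested. *Hey2*, a Hey family repressor of the ventricular myocardium and arteries, had 379.6 and 343 normalized counts against 174 and 202, which is -0.94 on the log2 scale (SE 0.19, adjusted p = 0.0185). The call of *Hey2* was lost without WT replicate 2 (-1.01, adjusted p = 0.0552) and without the *Taf4a*-/- labelled replicate 1 (-0.83, adjusted p = 0.101).

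*Hes1*, a target repressor active in most progenitor cells, had 987 and 864 normalized counts in WT and 1048 and 1063 in the *Taf4a*-/- labelled libraries, which is a log2 difference of 0.19 (SE 0.13, adjusted p = 0.312 from limma). Both null values of *Hes1* lay above both WT values, in the libraries where all 3 Hey genes were lower. *Nrarp*, a target that limits Notch signalling, had 419 and 219 normalized counts against 205 and 291, and its genotypes overlapped. *Hes5*, a target of neural progenitors, had 10 and 3 reads in WT and 1 and 0 in the *Taf4a*-/- labelled libraries, too few to be tested.

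In all, 61 other genes of the pathway, from non-canonical ligands to targets, were looked up, and 57 had enough reads to be tested. In the *Taf4a*-/- labelled libraries 10 of them were higher and 13 lower, which are 17.5% and 22.8% of the genes tested beside 11.3% and 17.3% of all genes. Their median log2 fold change was -0.069. The count of higher genes rested on the libraries used and fell to 1 without either *Taf4a*-/- labelled library, to 5 without WT replicate 2 and to 6 with the replicate number as a block. The count of lower genes was 7 without WT replicate 2 and 6 without the *Taf4a*-/- labelled replicate 1.

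Of the non-canonical ligands, *Dlk1* and *Dlk2* were lower. *Dlk1*, an imprinted Delta-like protein without the usual receptor-binding domain, was among the most abundant transcripts, with 66957 and 79594 normalized counts in WT and 26352 and 32268 in the *Taf4a*-/- labelled libraries. It ranked 12 and 11 among all genes in the WT libraries and 44 and 29 in the others, and its log2 fold change was -1.32 (adjusted p = 0.00677 from limma). *Dlk2*, its paralogue, had 47.3 and 56.1 normalized counts against 7.83 and 4.42, a fall of 2.92 on the log2 scale (adjusted p = 0.00837), and its span overlaps another gene, *Abcc10*, whose reads cannot be told apart without strand. The calls of *Dlk1* and *Dlk2* were each lost without 1 library (adjusted p = 0.0772 without the *Taf4a*-/- labelled replicate 1 for *Dlk1*, and 0.0529 without WT replicate 2 for *Dlk2*).

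The genes that modify, cleave or ubiquitinate receptors and ligands moved in both directions. Of 6 glycosylation genes 2 were higher and 1 lower, and of 13 ubiquitination genes 1 was higher and 3 lower, beside 11.3% higher and 17.3% lower of all genes. The rises were those of *Lfng* (0.80 on the log2 scale, adjusted p = 0.0305 from limma) and *Pofut1* (0.45, adjusted p = 0.0313), which add sugars to Notch, and of *Fbxw7* (0.57, adjusted p = 0.0226), which marks its intracellular part for degradation. These calls were lost when either *Taf4a*-/- labelled library was left out, and the span of *Fbxw7* overlaps *Arfip1*. In the cleavage group 4 of 10 genes were lower (40.0%, beside 17.3% of all genes), or 3 with equal totals or upper quartile scaling, and limma, voom and an unadjusted p-value under 0.05 gave 0 higher. *Aph1b* and *Aph1c*, alternative subunits of the γ-secretase that releases the intracellular part of Notch, had log2 fold changes of -0.97 and -2.36 (adjusted p = 0.0231 and 0.0108 from limma). They are near-identical paralogues, and how reads that match both genes were counted is not given here. Both calls were lost without WT replicate 2, and that of *Aph1b* also without the *Taf4a*-/- labelled replicate 2. *Neurl1b*, a ubiquitin ligase for Notch ligands, had 207 and 311 normalized counts in WT and 52.9 and 58.6 in the *Taf4a*-/- labelled libraries, a log2 fold change of -2.17 (adjusted p = 0.00518). *Numbl*, a relative of the Notch antagonist *Numb*, was lower at -0.88 (adjusted p = 0.00919), and its span overlaps *Adck4*. *B4galt1*, a galactosyltransferase that extends the sugars of Notch, was lower at -0.90 (adjusted p = 0.0241) and was not called without the *Taf4a*-/- labelled replicate 1 (adjusted p = 0.0677).

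In the nucleus *Rbpj*, the DNA-binding partner of all 4 receptors, had 1463 and 1664 normalized counts in WT and 1707 and 2019.5 in the *Taf4a*-/- labelled libraries, with a log2 fold change of 0.25 (95% interval -0.091 to 0.59, adjusted p = 0.223 from limma). Its coactivator *Maml2* was lower, at -0.88 (adjusted p = 0.0194), but not when any of WT replicates 1 and 2 or the *Taf4a*-/- labelled replicate 1 was left out (adjusted p = 0.0577, 0.0606 and 0.111). Of 12 corepressor genes 5 were higher, by limma and by voom (41.7%, beside 11.3% of all genes), and 0 were lower by either or at an unadjusted p-value under 0.05. Among these rises that of *Spen* alone was still called without the *Taf4a*-/- labelled replicate 1, and they were not called without replicate 2. The largest rise was that of *Spen*, which represses with *Rbpj* when Notch is not active, at 0.88 (adjusted p = 0.028 from limma). *Kat2a*, an acetyltransferase that acts with the Notch complex, rose by 0.81 (adjusted p = 0.0252). Neither call held without every library, since the adjusted p-value was 0.0661 for *Spen* without the *Taf4a*-/- labelled replicate 2 and 0.086 for *Kat2a* without replicate 1, and the span of *Spen* overlaps *Zbtb17*. Without a variance trend *B4galt1*, *Aph1b*, *Maml2*, *Kat2a* and *Spen* did not pass either, with adjusted p-values from limma between 0.0528 and 0.094.

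**Figure D4:**
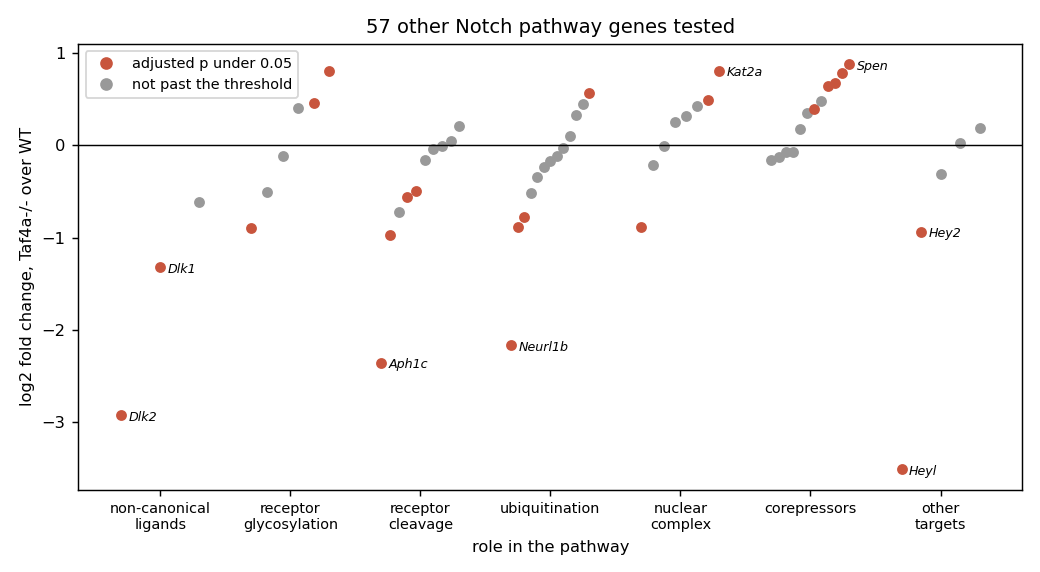
Log2 fold change of the 57 other Notch pathway genes tested, *Taf4a*-/- labelled libraries over WT, by role, with red for genes past the adjusted threshold and grey for the rest. The lowest points are *Heyl* at -3.51, *Dlk2* at -2.92, *Aph1c* at -2.36 and *Neurl1b* at -2.17, while no rise exceeds 0.88.

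Whole cultures were sequenced, so fewer cells of a type and less RNA per cell cannot be told apart for any of these genes. *Dll4* and *Notch4* had the same order of libraries within each genotype as most endothelial markers, but this order was not limited to endothelial genes. The junction protein gene *Cdh5*, a defining endothelial marker, was at 2167 in WT replicate 1, at 1195 in WT replicate 2, at 992 in the *Taf4a*-/- labelled replicate 1 and at 2226 in replicate 2. It was thus 1.81-fold higher in WT replicate 1 than in 2, as *Dll4* was by 1.85-fold and *Notch4* by 2.40-fold. In the *Taf4a*-/- labelled libraries, replicate 2 was the higher one, by 2.25-fold for *Cdh5*, 2.55-fold for *Dll4* and 1.57-fold for *Notch4*. Of 13 endothelial markers 11 were higher in the same 2 libraries, and *Flt1* and *Sox17* were higher in the other 2. *Notch1* and *Jag1* also had this order, whereas *Notch2*, *Notch3*, *Dll1*, *Dll3*, *Jag2* and *Hey1* did not. How many of all genes had it was not counted. No endothelial marker passed the test between genotypes with limma, 2 were lower at an unadjusted p-value under 0.05 and voom called 1 lower, with summed levels of 16370 to 18332 normalized counts in WT and 13046 to 16215 in the *Taf4a*-/- labelled libraries and no marker at 0. The part of endothelial cells in the values of *Dll4* and *Notch4* was not tested.

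**Figure D5:**
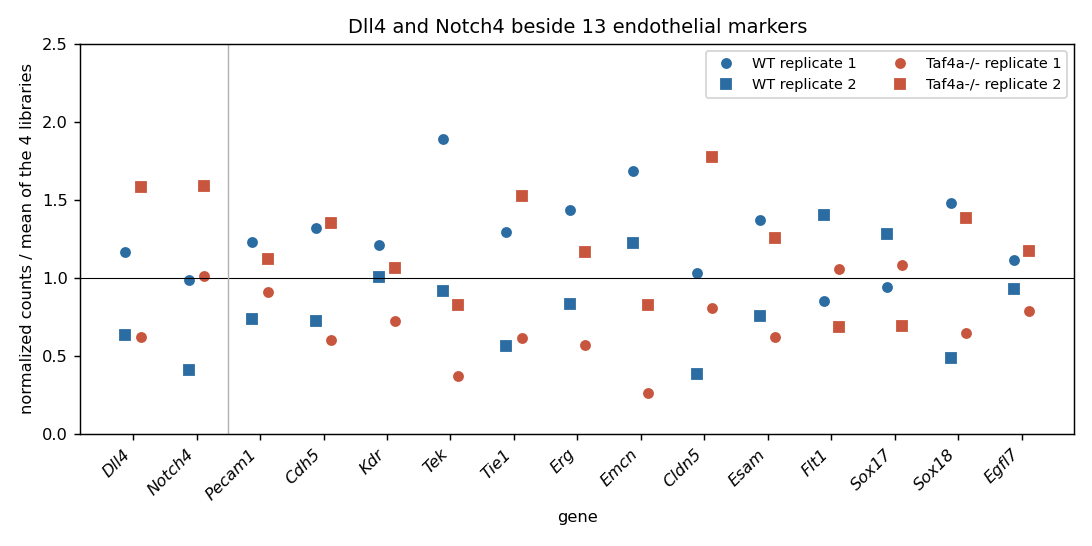
Normalized counts of *Dll4*, *Notch4* and 13 endothelial markers in each of the 4 libraries, divided by the mean of the 4 libraries for that gene, with a line at 1. WT replicate 1 (blue circles) lies above WT replicate 2 (blue squares), and the *Taf4a*-/- labelled replicate 2 (red squares) above replicate 1 (red circles), for *Dll4*, *Notch4* and 11 of the markers.

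Many markers of other cell types were also lower in the libraries where *Jag1*, *Jag2* and the Hey genes were lower. Besides the 13 cardiomyocyte markers, 7 of 8 fibroblast and 9 of 9 macrophage markers were lower in the *Taf4a*-/- labelled libraries. The summed level of the fibroblast markers was 429319 to 596621 normalized counts in WT and 48130.3 to 60341 in the *Taf4a*-/- labelled libraries. That of the macrophage markers was 12010 to 15466 and 259 to 388, with *Cx3cr1*, *C1qa*, *C1qb* and *Adgre1* at 0 in at least 1 library. Of 10 smooth muscle and pericyte markers 3 were lower and 1, *Rgs5*, was higher (30.0% and 10.0%, beside 17.3% and 11.3% of all genes). Their summed levels were 40746 to 65687 in WT and 30541 to 31152 in the *Taf4a*-/- labelled libraries, and none was at 0. *Notch3* and *Heyl*, both genes of mural cells, differed in outcome, since *Heyl* passed the threshold and *Notch3* did not. Within each genotype the summed fibroblast and macrophage levels were higher in replicate 2, as *Hey1* was, whereas *Jag2* was higher in replicate 1. *Jag1* was higher in WT replicate 1 and in the *Taf4a*-/- labelled replicate 2. The part of any of these cell types in the falls was not tested.

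Markers of the tissues in which *Dll1* and *Dll3* are best known were looked up too. Of 9 somite and presomitic markers 8 were found and 6 tested, with summed levels of 185 to 371 normalized counts in WT and 492 to 518 in the *Taf4a*-/- labelled libraries, and *Msgn1* was at 0 in both WT libraries. The only called gene of these, *Tcf15*, rose by 3.08 on the log2 scale, and an unadjusted p-value under 0.05 gave 2 higher. Of 11 neural markers 10 were found, and limma called none of the 7 tested. At an unadjusted p-value under 0.05 limma gave 1 lower, voom called 0, and the summed levels were 3781 to 4428 in WT and 4428 to 6203 in the *Taf4a*-/- labelled libraries. Their part in the levels of *Dll1* and *Dll3* was not tested.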

How the data were processed

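PolyA RNA of 4 libraries was analysed, 2 per genotype. Per the labels and the paper's methods, the authors mapped reads to mm9/NCBI37 with TopHat (1.3.3), with CASAVA (1.8), HTSeq (0.5.3p1) and DESeq named in the submitters' processing notes, and deposited counts per gene divided by a size factor per library. The annotation release is not given in the sources used here. Division by the smallest value above 0 in a library gave whole reads, within 0.01 of a read, for 100% of values. All 24637 identifiers were found in GENCODE vM1 (NCBIM37), which gave positions and exon lengths, and 2 list genes were found under no symbol. The kit does not mark strand, so overlapping genes cannot be told apart.

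Genes with a mean of at least 10 were tested with limma 3.58.1 (R 4.3.3, eBayes with a variance trend, prior of 4.17 degrees of freedom) on log2(value + 1), a scale that understates the change of low genes, and called at an adjusted p-value under 0.05. The fit was run on simulated data with 200 changed genes of 16890 and the same dispersion (0.0087) for every gene. It called 91% of the changed genes in the right direction, and 7.6% of its calls were unchanged genes. In the real data 28.6% of genes were called, a setting that the simulation did not cover. The genes and lists were chosen with earlier results of these data known. Named were the 10 genes, *Taf4a*, *Hes1*, *Hes5*, *Hey2*, *Heyl*, *Nrarp*, *Rbpj*, and the 12 called pathway genes of largest change whose genotypes do not overlap. Other genes (*Cdh5*, *Flt1*, *Sox17*, *Rgs5*, *Tcf15*, *Lfng*, *Pofut1*, *Fbxw7*) were chosen after their values were seen. Nothing says that libraries with the same replicate number belong together, so they were not paired. Figures were drawn with matplotlib 3.10.9.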

Additional observations from a re-analysis of the deposited data

How the results depend on the processing

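Alternatives were other pseudocounts, filters, scalings, no variance trend, the replicate number as a block and leaving out each library in turn, where a lone library was assumed to vary like the others. Limma's voom on recovered reads was added once the data had been seen, and the planned edgeR and DESeq2 tests were not run. Of 362 values of named genes under these alternatives, 330 kept their direction and side of the threshold.

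Over all genes 1906 were called higher and 2928 lower. Without a variance trend these were 856 and 1741, with 1 pathway gene higher and 7 lower, and at an adjusted p-value under 0.01 they were 331 and 1119, with 0 and 5. With quantile normalization they were 2676 and 2448, which raised the share of higher calls from 39.4% to 52.2% and moved the median of all genes to 0.11, and with upper quartile scaling the share was 49.7%. Equal totals and upper quartile scaling each called 1 of the 10 genes higher, *Notch2*. The replicate block gave 1536 and 2657 calls, with 6 pathway genes higher, and changed no call of the 10 genes, and the correlation of same-numbered deviations was 0.012. Leaving out 1 library gave 600 to 2558 higher and 1453 to 3106 lower, 0 to 1 of the 10 genes higher and 2 to 3 lower, and 1 to 13 pathway genes higher and 6 to 11 lower. It changed the sign of 5 genes that were not called, with log2 fold changes from -0.21 to 0.35 for *Notch1*, -0.12 to 0.36 for *Dll1*, -0.11 to 1.24 for *Dll3*, -0.47 to 0.87 for *Dll4* and -0.78 to 0.15 for *Nrarp*. The cause was not tested. Depth was 20 to 62 reads a library for *Dll3*, and the interval of its change allows either direction.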

Other observations

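How closely *Dll4* followed the endothelial markers depended on the marker. Over the 13 markers, the highest ratio of *Dll4* to the marker among the 4 libraries exceeded the lowest by 1.25-fold (*Tie1*) to 5.11-fold (*Flt1*), with a median of 2.07-fold. The level of *Dll4* itself varied by up to 2.55-fold across the same libraries. Relative to *Cdh5* it stood at 9.47% and 9.30% in the WT libraries and at 10.96% and 12.5% in the *Taf4a*-/- labelled ones, whereas relative to *Tek* it stood at 14.3% and 15.97%, and at 38.5% and 44.2%. For *Notch4* the same spread ran from 1.41-fold (*Cldn5*) to 11.6-fold (*Emcn*), with a median of 3.07-fold. The markers named here were chosen after their values were seen. Ratios within a library do not depend on its scaling, and none of these was tested.

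*Heyl* and *Notch3* parted within the same libraries. *Heyl* had 3.34% and 5.12% of the normalized counts of *Notch3* in the WT libraries and 0.377% and 0.382% in the *Taf4a*-/- labelled libraries. *Jag1* had 25.8% and 26.4% of the counts of *Notch3* in WT and 14.2% and 16.0% in the others.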
